A study of Arabidopsis thaliana with 9 samples.

Results

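Transcripts of 7 nuclear genes of the photosynthetic light reactions were followed across 3 Arabidopsis thaliana lines. The genes were LHCB4.1, LHCB4.2, PSBY, PSBW, PSAN, PSAE-1 and ATPC1. Their choice was made with earlier results of these data known. They were taken by name from the probe annotation, which gives each of them 1 probe set, so the account rests on 7 of the 22810 probe sets on the Affymetrix ATH1 array, or 7 of 13286 genes that a probe set names alone. All 7 were bright enough to be tested, and none of the 7 probe sets is of the kind marked as able to detect several transcripts.

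Photosystem II splits water and photosystem I reduces ferredoxin, and both are fed with light energy by antenna proteins that bind chlorophyll. Electron flow between them builds the proton gradient that drives the chloroplast ATP synthase. Core proteins of these complexes are encoded in the plastid, while the antenna proteins and many small subunits are encoded in the nucleus and imported, and their transcripts are typically among the most abundant in green tissue. Such nuclear genes respond to light, to sugar and to signals from the plastid.

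The lines were iae2, iae1 and B1798, each with 3 arrays and each in the Ler (Landsberg erecta) ecotype. The name iae was given to Arabidopsis mutants in which the maize element Ac excises more often, and the title of the series states a genetic question about their phenotypes. B1798 is set here as the reference because it carries no iae name. The labels do not call it a control, and they give no allele, transgene or plant age. All lines shared a growth room, 1% sucrose as the only nutrient named, growth stage 1.0, and a sample of crown, hypocotyl, cotyledons and apical meristem bud. The series text gives 30 pooled plants without saying for which unit, and no label says whether the 3 arrays of a line stem from different cultures. The p-values therefore speak to the spread among these arrays alone, and that spread may be technical.

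Signals were on a linear scale that had been set to a trimmed mean of 100 on every array. The ratio of the 3' to the 5' GAPDH control probe sets, a sign of RNA quality, was 1.73 to 1.98 in iae2, 2.32 to 2.48 in iae1 and 2.27 to 3.11 in B1798. Among markers of tissues in the sample, RCA (Rubisco activase, green tissue) read 2519 to 3204.8 over the 9 arrays, LAS (axillary meristem) 28.9 to 42.6 and CLV3 (stem cells of the shoot tip) 2.2 to 8.3, too low to be tested. Of 7 root markers, 3 were measured, and their summed signal, almost all of it from the beta-glucosidase PYK10, was 3325 to 3684 in iae2, 3972 to 4209 in iae1 and 4008 to 4471 in B1798. PYK10 fell in iae2 against B1798 (log2 fold change -0.33, adjusted p = 0.00898), with -0.08 in iae1 (adjusted p = 0.632). The dim root markers had values of the other sign, 0.31 in iae2 (adjusted p = 0.135) and 0.17 in iae1 (adjusted p = 0.542) for EXPA7, and 0.34 in iae2 (adjusted p = 0.0695) for AT5G17820, which rose in iae1 (0.51, adjusted p = 0.0202). FAMA, the measured member of 3 guard cell markers, read 28.5 to 42.7. None of these markers was listed at 0, and the part of the root sum or of the GAPDH ratio in the results below was not tested, except where a fit with the GAPDH ratio is given. Every iae2 array had a lower ratio than every other array, so such a fit cannot fully separate the ratio from the iae2 line. In such bulk RNA, fewer cells of a type and less RNA per cell cannot be told apart.

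LHCB4.2 was the gene of this group that was called, at an adjusted p below 0.05 in the fit reported. It encodes a form of CP29, a minor antenna protein that links the outer light-harvesting complexes to the core of photosystem II, and its locus is AT3G08940 on chromosome 3. Its signal was 2510.2, 2656.6 and 2871.5 on the iae2 arrays, 1445.8, 1562.1 and 1430.4 on the iae1 arrays and 1578.3, 1795.6 and 1944.2 on the B1798 arrays. The 3 lines did not overlap in it, with iae2 above B1798 and iae1 below it.

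LHCB4.2 averaged 2679 ± 182 in iae2 and 1773 ± 184 in B1798 (SD, n = 3 each), a ratio of mean signals of 1.51. The log2 fold change, on the scale of log2(signal + 16) used for all fold changes here, was 0.59 ± 0.09 (SE, 95% interval 0.41 to 0.78, limma adjusted p = 0.000188), and 5.24% of the 14404 tested probe sets changed by more between these lines. Against iae1, which averaged 1479 ± 72.0, LHCB4.2 in iae2 was 1.81 times as high, with a log2 fold change of 0.85 ± 0.09 (SE, interval 0.66 to 1.04, adjusted p = 5.39e-06), and 2.13% of tested probe sets changed by more. Between iae1 and B1798 the log2 fold change was -0.25 ± 0.09 (SE, interval -0.44 to -0.07) and did not pass (adjusted p = 0.0978). That last value passed without B1798 replicate 1, the lowest B1798 array (-0.33, adjusted p = 0.0291), and with quantile normalization (-0.24, adjusted p = 0.0337), while the adjusted p over all alternatives ran from 0.0291 to 0.382. With the GAPDH ratio as a covariate the change in iae2 against B1798 was 0.94 ± 0.12 (SE, adjusted p = 0.000638). That in iae1 against B1798 was -0.13 (adjusted p = 0.382). The iae2 and B1798 arrays share no range of that ratio, so 0.94 is not a corrected size of the change.

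**Figure D1:**
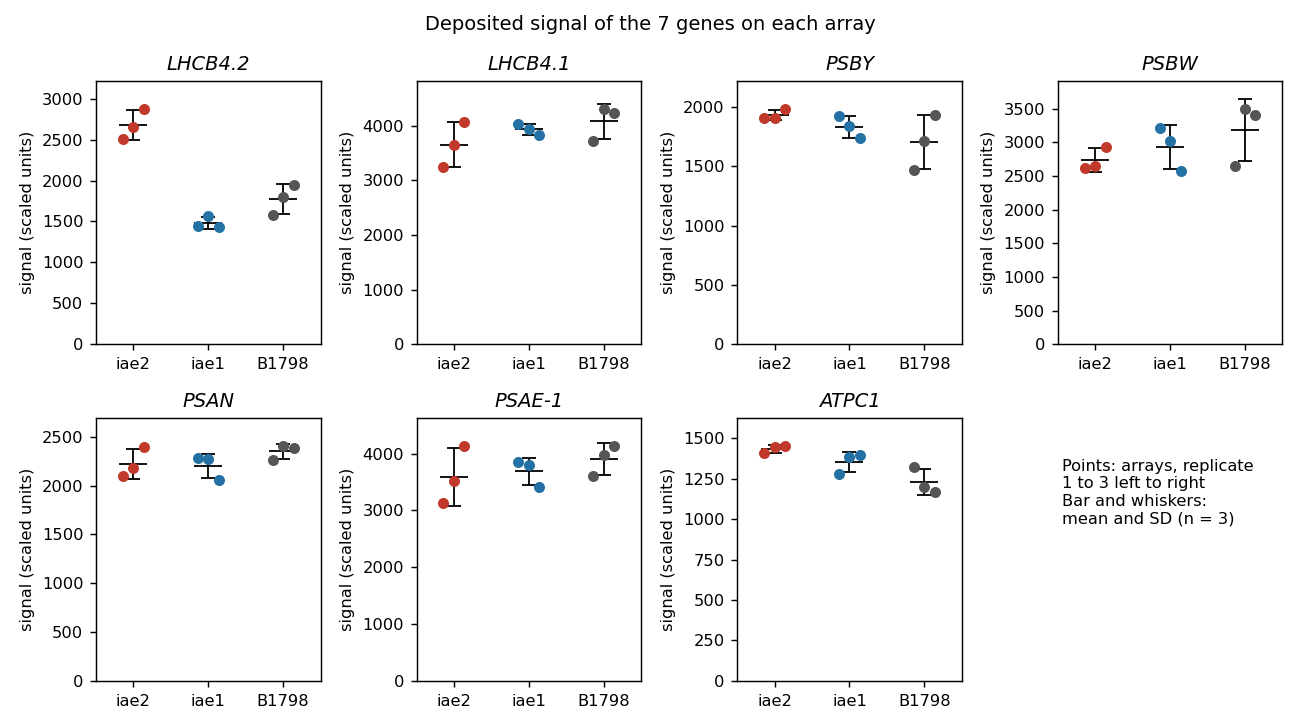
Deposited signal, in scaled units on a linear axis from 0, of each gene on each array of iae2, iae1 and B1798, with arrays in replicate order, the mean as a bar and the SD as whiskers (n = 3). LHCB4.2 separates the 3 lines without overlap, and ATPC1 separates iae2 from the others, while the remaining 5 genes overlap between all lines.

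LHCB4.1 encodes another form of CP29 (locus AT5G01530, chromosome 5). Its signal was 3238.9, 3651.7 and 4062.6 in iae2, 4025.3, 3932.6 and 3834.9 in iae1 and 3711, 4299.8 and 4225.5 in B1798. Arrays of the 3 lines overlapped throughout. The log2 fold change was -0.16 in iae2 against B1798 (95% interval -0.36 to 0.04, adjusted p = 0.265) and -0.05 in iae1 against B1798 (interval -0.25 to 0.15, adjusted p = 0.813). In iae2 against iae1 it was -0.11 (interval -0.31 to 0.09, adjusted p = 0.46). Each of these 3 values turned positive with quantile normalization (0.08, 0.04 and 0.04 in the order given). The interval of LHCB4.1 in iae2 lies below that of LHCB4.2 in the same comparison.

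The CP29 pair was therefore also compared within each array, as log2(signal + 16) of LHCB4.2 minus that of LHCB4.1. An array's common scaling factor nearly cancels in such a difference. Its own level says nothing of relative transcript amounts, since 2 probe sets are not calibrated against each other. It was -0.37, -0.46 and -0.50 on the iae2 arrays, -1.47, -1.32 and -1.41 on the iae1 arrays and -1.23, -1.25 and -1.11 on the B1798 arrays, so that again no line overlapped another. The mean was -0.44 ± 0.07 in iae2, -1.40 ± 0.07 in iae1 and -1.20 ± 0.07 in B1798 (SD, n = 3 each). The difference between lines was 0.76 for iae2 against B1798, 0.96 for iae2 against iae1 and -0.20 for iae1 against B1798. In each of these 3 comparisons the two-sided exact permutation p was 0.1, also after Benjamini-Hochberg adjustment, which is the smallest that 3 arrays against 3 allow and cannot reach 0.05. When any array was left out, the difference stayed between 0.72 and 0.80 for iae2 against B1798, between 0.92 and 1.00 for iae2 against iae1, and between -0.24 and -0.16 for iae1 against B1798.

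**Figure D2:**
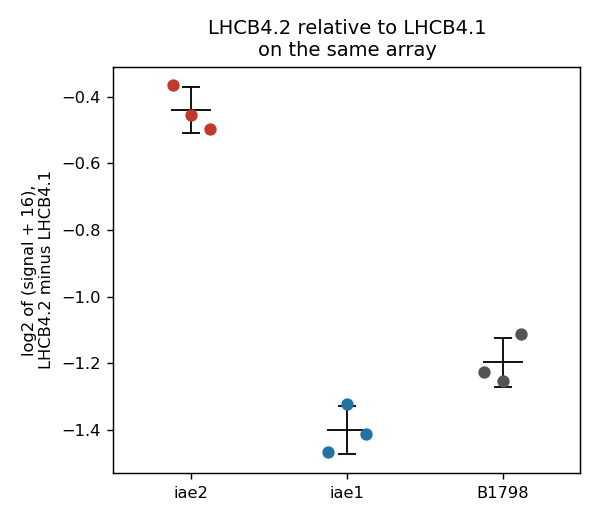
LHCB4.2 relative to LHCB4.1 on the same array, as the difference of log2(signal + 16) on the vertical axis, for the 3 arrays of iae2, iae1 and B1798, with the mean as a bar and the SD as whiskers. The iae2 arrays lie between -0.50 and -0.37, above all arrays of B1798 (-1.25 to -1.11), and the iae1 arrays lie lowest (-1.47 to -1.32).

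ATPC1 encodes the gamma subunit of the chloroplast ATP synthase, the rotating shaft whose thiol switch turns the enzyme on in light (locus AT4G04640, chromosome 4). It read 1406.5, 1444.5 and 1451.6 in iae2, 1281, 1383.1 and 1397 in iae1 and 1320.5, 1196.5 and 1167.4 in B1798. Every iae2 array lay above every array of the other lines, whereas iae1 and B1798 overlapped. The log2 fold change in iae2 against B1798 was 0.22 ± 0.07 (SE, 95% interval 0.06 to 0.38), just outside the threshold at an adjusted p = 0.0504. It passed in 6 of the 22 alternatives that gave a fold change, among them the fit without B1798 replicate 1 (0.28, adjusted p = 0.0212) and quantile normalization (0.31, adjusted p = 0.0073), and was 0.06 with the GAPDH ratio as a covariate (adjusted p = 0.875, the highest of all alternatives). In iae1 against B1798 it was 0.14 (interval -0.02 to 0.30, adjusted p = 0.307), and in iae2 against iae1 it was 0.08 (interval -0.08 to 0.24, adjusted p = 0.496).

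PSBY encodes a small membrane protein of photosystem II (locus AT1G67740, chromosome 1). It read 1903.9, 1907.3 and 1980.5 in iae2, 1919.9, 1837.4 and 1734.3 in iae1 and 1471.5, 1708.6 and 1930.3 in B1798. The iae2 arrays were close together and the B1798 arrays wide apart, with a coefficient of variation of 2.24% in iae2, 5.08% in iae1 and 13.5% in B1798. The log2 fold change was 0.19 in iae2 against B1798 (95% interval -0.01 to 0.38, adjusted p = 0.183), 0.11 in iae1 against B1798 (interval -0.08 to 0.30, adjusted p = 0.546) and 0.08 in iae2 against iae1 (interval -0.12 to 0.27, adjusted p = 0.621). The first of these passed with quantile normalization (0.28, adjusted p = 0.0149), with the GAPDH ratio as a covariate (0.58, adjusted p = 0.0167) and without B1798 replicate 3 (0.28, adjusted p = 0.0491), and its adjusted p reached 0.523 in other alternatives. The value of iae2 against iae1 passed with that covariate (0.33, adjusted p = 0.0368) and had an adjusted p up to 0.856 elsewhere.

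PSBW, also of photosystem II, encodes a small protein that helps hold the antenna to the core complex (locus AT2G30570, chromosome 2). It read 2619.8, 2641.2 and 2936.3 in iae2, 3209, 3021.7 and 2575.5 in iae1 and 2652.3, 3491.2 and 3412 in B1798. All lines overlapped. The log2 fold change was -0.21 in iae2 against B1798 (95% interval -0.44 to 0.02, adjusted p = 0.214), -0.11 in iae1 against B1798 (interval -0.35 to 0.12, adjusted p = 0.618) and -0.10 in iae2 against iae1 (interval -0.33 to 0.13, adjusted p = 0.595). Without B1798 replicate 1 the iae2 value was -0.34 and passed (adjusted p = 0.0279), and with the GAPDH ratio as a covariate it was 0.25 (adjusted p = 0.453).

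The photosystem I subunits PSAN and PSAE-1 did not pass in any comparison. PSAN lies on the lumenal side, where plastocyanin delivers electrons (locus AT5G64040, chromosome 5). It read 2096.3, 2174.6 and 2391.4 in iae2, 2279.6, 2268.9 and 2057.3 in iae1 and 2262.9, 2405.2 and 2387.4 in B1798, with overlap between all lines. Its log2 fold change was -0.08 in iae2 against B1798 (95% interval -0.25 to 0.08, adjusted p = 0.527), -0.10 in iae1 against B1798 (interval -0.26 to 0.07, adjusted p = 0.546) and 0.01 in iae2 against iae1 (interval -0.16 to 0.18, adjusted p = 0.95). PSAE-1 lies on the stromal side, near the site where ferredoxin is reduced (locus AT4G28750, chromosome 4). It read 3126.9, 3513.3 and 4132.7 in iae2, 3858.7, 3791.1 and 3411.6 in iae1 and 3601.8, 3981.6 and 4134.8 in B1798, again overlapping throughout. Its log2 fold change was -0.13 in iae2 against B1798 (interval -0.34 to 0.09, adjusted p = 0.438), -0.08 in iae1 against B1798 (interval -0.30 to 0.13, adjusted p = 0.705) and -0.05 in iae2 against iae1 (interval -0.26 to 0.17, adjusted p = 0.812). With quantile normalization the iae2 values against B1798 of PSAN and PSAE-1 turned to 0.03 and 0.10.

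**Figure D3:**
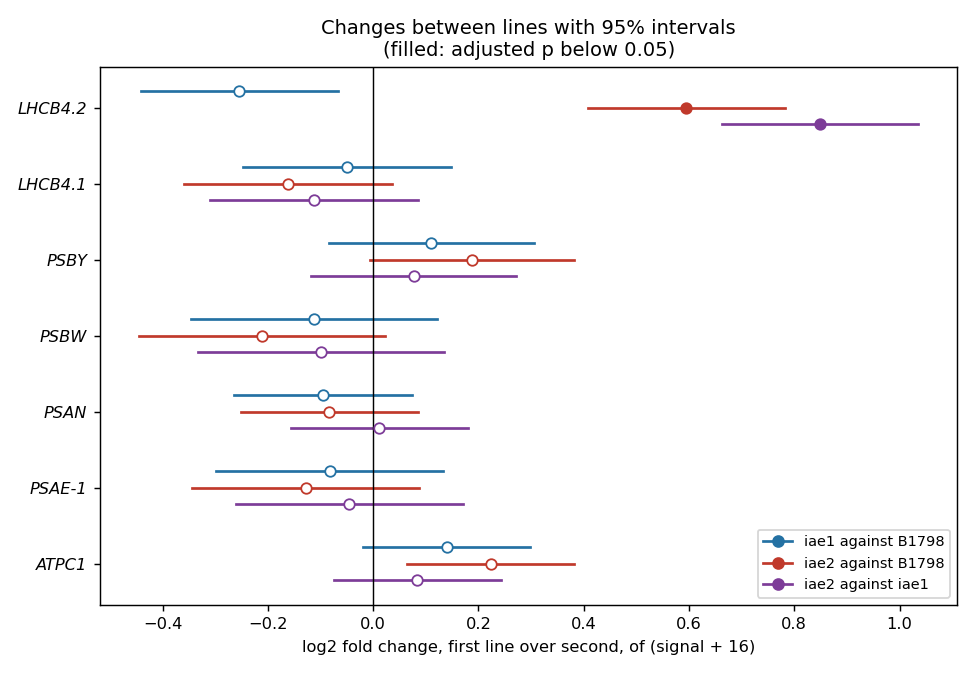
Log2 fold change of (signal + 16) with its 95% interval for each gene, in iae1 against B1798, iae2 against B1798 and iae2 against iae1, with filled points where the adjusted p was below 0.05. The filled points are those of LHCB4.2 at 0.59 and 0.85, and the other values lie between -0.25 and 0.22.

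In iae2 against B1798, 1 of the 7 genes was called (adjusted p below 0.05), where 17.8% of all tested probe sets were. In iae1 against B1798, limma called 0 of 7, beside 7.21% of all tested, and LHCB4.2 was the 1 gene with an unadjusted p below 0.05. In iae2 against iae1 it called 1 of 7, beside 19.6%. Arrays of the lines compared did not overlap for 2 of 7 genes in iae2 against B1798 (33.3% of all tested), 1 of 7 in iae1 against B1798 (24.7%) and 2 of 7 in iae2 against iae1 (35.8%). None of these shares sets the group apart from the rest of the array. The median log2 fold change over the 7 was -0.08 in iae2 against B1798, -0.08 in iae1 against B1798 and 0.01 in iae2 against iae1, and over all tested probe sets it was 0.00, 0.01 and 0.00. The count in iae2 against B1798 was 3 without B1798 replicate 1, 2 without B1798 replicate 3, and 3 when the lowest array of each line was left out together, a choice made after the values were seen. In iae1 against B1798 the count was 1 without B1798 replicate 1.

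All 7 genes are bright, and bright probe sets as a class shifted between these lines. The brightest probe set of an array was taken with the control probe sets included. It read 5357 to 5893 in iae2, 6518 to 7926 in iae1 and 6047 to 8093 in B1798. The 99th percentile without controls overlapped between lines. It was 1713 to 1871 in iae2, 1852 to 1902 in iae1 and 1799 to 1961 in B1798. Over the 570 tested probe sets with a mean signal of at least 1000, a limit set after the values were seen, the median log2 fold change was -0.14 in iae2 against B1798 (76.7% below 0), -0.01 in iae1 against B1798 and -0.12 in iae2 against iae1 (71.6% below 0). With quantile normalization these medians were -0.03 in iae2 against B1798, 0.01 in iae1 against B1798 and -0.03 in iae2 against iae1. The iae2 values of LHCB4.1, PSBW, PSAN and PSAE-1 against B1798, -0.21 to -0.08, lie around the bright median, whereas LHCB4.2, ATPC1 and PSBY lie above it. The marker PYK10, also bright, had -0.33 in iae2 against B1798 and was not followed in the alternatives.

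Within each line the genes tended to be high or low on the same array. In iae2, replicate 1 was the lowest array for 7 of 7 genes and replicate 3 the highest for 7 of 7. In iae1, replicate 3 was lowest for 6 of 7, and in B1798 replicate 1 was lowest for 6 of 7. The exception in both lines was ATPC1, which was highest on those arrays. The median deviation of the genes from their line means was -0.08 on the low iae2 array, -0.08 on the low iae1 array and -0.13 on the low B1798 array (log2 scale), where the median over all tested probe sets was 0.01, 0.01 and 0.00. The low iae1 array had a scanner background of 67.81, against 53.6 and 53.49 on the others of its line. The low B1798 array had 59.86, against 55.82 and 56.36, and the low iae2 array had 62.53, against 62.98 and 59.73. The low array also had the lowest GAPDH ratio of its line in all 3 lines, with 1.73 against 1.88 and 1.98 in iae2, 2.32 against 2.46 and 2.48 in iae1, and 2.27 against 2.80 and 3.11 in B1798. Controls included, the brightest probe set read 6518 on the low iae1 array and 6047 on the low B1798 array, the lowest of each line. In iae2 it read 5488 on the low array and 5357 on replicate 2. Whether other bright probe sets share the order of arrays was not examined. The part of any of these measures in that order was not tested.

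**Figure D4:**
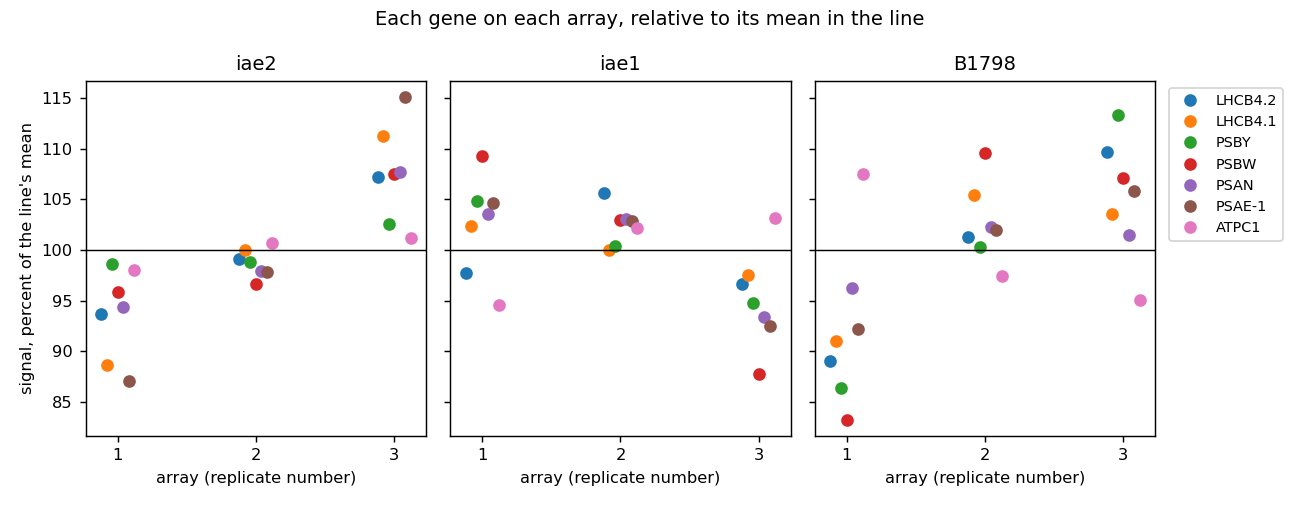
Signal of each gene on each array as a percent of its mean in the line, by replicate number, in iae2, iae1 and B1798. Most genes sit under 100 on iae2 array 1, iae1 array 3 and B1798 array 1, while ATPC1 (pink) sits above 100 on the last 2 of these.

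Taken as deviations from the line means over the 9 arrays, LHCB4.1, PSAE-1, PSBW and PSAN correlated with one another at r of 0.75 to 0.95. ATPC1 ran the other way from all of them, with r between -0.86 (with PSBY) and -0.33 (with PSAE-1). LHCB4.2 followed LHCB4.1 within lines (r = 0.80) but not over the undivided values (r = -0.30), where the line differences enter. These are descriptions, since values from one array share its RNA and its scaling factor.

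Other genes with the most similar pattern were sought by Pearson r of log2(signal + 16) over the 9 arrays, among 7852 tested probe sets of a single gene. For LHCB4.2 the closest were AT3G19800 (r = 0.988), AT2G01870 (0.984), AT1G59960 (0.977), AT5G16990 (0.976) and ARA12, a subtilisin-like protease gene (0.976). Their order of lines was that of LHCB4.2, which follows from choosing them by r over these arrays. AT3G19800 averaged a signal of 374 ± 14.6 in iae2, 271 ± 8.23 in iae1 and 302 ± 6.29 in B1798 (SD, n = 3 each), and AT2G01870 averaged 180 ± 15.9, 82.6 ± 3.61 and 113 ± 10.9 in these lines. The closest to PSBW was the plastid-encoded atpE, the epsilon subunit of the ATP synthase (r = 0.973). The closest probe sets were AT5G35530 for LHCB4.1 (0.968), AT4G26710 for PSBY (0.978), AT2G07170 for PSAN (0.930), DDL, a gene of small RNA biogenesis, for PSAE-1 (0.949) and AT1G50110 for ATPC1 (0.966). AT2G07170 and AT1G50110 are dim, at most 27.2 and 28.3 on average in any line.

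The neighbours of LHCB4.2 on chromosome 3 were read for the same lines, a check added after its change was seen. Of the 5 tested genes on either side, 0 of 10 were called by limma in iae2 against B1798 (1 at an unadjusted p below 0.05), with log2 fold changes between -0.20 and 0.23. In iae2 against iae1, 2 of 10 were called. These were the nearest tested gene on one side, AT3G08930 (0.42, adjusted p = 0.00215), and the next one on that side, AT3G08920 (0.37, adjusted p = 0.0125), both in the direction of LHCB4.2. Against B1798, AT3G08930 had 0.18 in iae2 and was the 1 with an unadjusted p below 0.05 (adjusted p = 0.164). AT3G08920 had 0.14 in iae2 against B1798 (adjusted p = 0.375). Around each of the other 6 genes, 1 to 3 of 10 neighbours were called in either comparison. Of all tested probe sets, 17.8% were called in iae2 against B1798 and 19.6% in iae2 against iae1, so the 2 of 10 next to LHCB4.2 are near that share.

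Of the other nuclear genes of the light reactions and of chlorophyll supply, 106 loci in 11 lists by role were considered, and 10 of them were read by a tested probe set named with that gene alone. The remaining loci, among them all antenna genes of photosystem I, the sigma factors and the light signalling genes, were not analysed here. In iae2 against B1798, 1 of the 10 rose and 1 fell, in iae1 against B1798 limma called 0 (1, CHLM, at an unadjusted p below 0.05), and in iae2 against iae1 1 fell. Over all tested probe sets the share called was 17.8% in iae2 against B1798, 7.21% in iae1 against B1798 and 19.6% in iae2 against iae1. The median log2 fold change of the 10 was 0.09, 0.06 and -0.03 in these comparisons.

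The 2 called genes act in chlorophyll synthesis, and they moved in opposite directions. CHLM, the methyltransferase that acts on magnesium protoporphyrin, read 920.4, 933 and 843.6 in iae2, 866.2, 792.9 and 801.2 in iae1 and 681.3, 726.2 and 702 in B1798. Its iae2 and iae1 arrays all lay above those of B1798, and it rose in iae2 (log2 fold change 0.35 ± 0.07, SE, adjusted p = 0.00349), while the value in iae1 against B1798 was 0.22 (adjusted p = 0.0897) and that in iae2 against iae1 was 0.13 (adjusted p = 0.251). HEMB1, the aminolevulinate dehydratase of the early pathway, read 250.3, 274.5 and 271.6 in iae2, 319.7, 369.1 and 331.2 in iae1 and 362.3, 334.1 and 320.9 in B1798. All iae2 arrays were below those of the other lines. HEMB1 fell by 0.33 on the log2 scale in iae2 against B1798 (adjusted p = 0.00885) and by 0.34 against iae1 (adjusted p = 0.00779), and its value in iae1 against B1798 was 0.00 (adjusted p = 0.991). With the GAPDH ratio as a covariate the calls of CHLM (0.37, adjusted p = 0.177) and HEMB1 (-0.44, adjusted p = 0.153) in iae2 against B1798 were not made. The values themselves did not shrink, and that fit cannot fully separate the ratio from the iae2 line.

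Members of the complexes outside the 7 did not pass in any comparison. LHCB4.3, the third CP29 gene, had log2 fold changes of 0.02 in iae2 against B1798, 0.06 in iae1 against B1798 and -0.03 in iae2 against iae1, at mean signals of 107 ± 4.88 in iae2, 110 ± 6.79 in iae1 and 107 ± 24.2 in B1798. PSB27, a photosystem II assembly and repair factor, had 0.12, 0.15 and -0.03 in these comparisons. PETM, a small subunit of the cytochrome b6f complex, had -0.31 (adjusted p = 0.0827), 0.02 (adjusted p = 0.956) and -0.32 (adjusted p = 0.0621). Without B1798 replicate 1, PETM passed in iae2 against B1798 (-0.44, adjusted p = 0.00609) and against iae1 (-0.32, adjusted p = 0.0169), with adjusted p up to 0.64 and 0.968 in other alternatives. ATPC2, a second gamma subunit gene of the ATP synthase, had -0.24, 0.05 and -0.29. HCF101, an iron-sulfur scaffold for photosystem I, had 0.15, -0.10 and 0.25, and PAM68, an assembly factor of photosystem II, had 0.10, 0.09 and 0.02.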

How the data were processed

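Per the labels' protocols, biotin-labelled cRNA made from phenol-extracted total RNA was hybridised to Affymetrix ATH1 arrays. The deposited values are intensity signals on a linear scale, 1 per probe set and array. How the authors summarised probes is not given in the sources used here. Each array's mean after trimming 2% at each end was 100. No 2 arrays were identical. Their number limits the precision.

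From these, log2(value + 16) was computed without further normalization. A probe set was tested if it reached its array's 40th percentile on at least 3 of 9 arrays, which kept 14404 of those that are not among the 64 controls. All 3 lines entered 1 limma 3.58.1 fit (R 4.3.3) with an intensity trend, two-sided moderated tests and Benjamini-Hochberg adjustment over all tested probe sets. Adjusted p-values for genes come from this fit, which was tested on simulated data. The simulated noise was independent between probe sets, so that test does not cover shifts that probe sets of an array share. Fold changes understate dim genes. Gene names came from the platform annotation, in which 13513 probe sets had 1 gene, 503 several and 8730 were unnamed here, and loci from a TAIR10.1 gene table. No coordinates are given, as no source names a build, and sequences of the genes were not used here. Genes with more than 1 probe set were read from the brightest.

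The genes and lists were chosen with earlier results of these data known. Besides the 7 genes, the text names every called gene of the pathway lists, in pathway lists without one the 2 with the lowest p of the F test, the closest gene to each of the 7 and the 5 closest to LHCB4.2. The neighbours AT3G08930 and AT3G08920 were named after their values were seen. Alternatives changed the pseudocount, floor, normalization, filter, variance model, weights, lines in the fit and threshold, added the replicate number as a block or the GAPDH ratio, and left out arrays. The fit reported did not pair arrays by replicate number. Deviations of arrays with the same number correlated at -0.15 to 0.14, above 0.1 in 1 of 9 pairs. These values do not settle whether such arrays were handled together. Figures used Python 3.11.15 and matplotlib 3.10.9.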

Additional observations from a re-analysis of the deposited data

Results flagged for a closer look

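The iae lines differed from each other, by the direct test in the limma fit, in 3 genes among the 7, the 10 other genes of the pathway lists and the tissue markers. LHCB4.2 was higher in iae2 than in iae1, with a log2 fold change of 0.85 (adjusted p = 5.39e-06), higher on 3 of 3 iae2 arrays. HEMB1 was lower in iae2 than in iae1, with a log2 fold change of -0.34 (adjusted p = 0.00779), lower on 3 of 3 iae2 arrays. The root marker PYK10 was lower in iae2, with a log2 fold change of -0.25 (adjusted p = 0.0385), lower on 3 of 3 iae2 arrays, while the other measured root markers had 0.15 (EXPA7, adjusted p = 0.512) and -0.16 (AT5G17820, adjusted p = 0.405). PYK10 is bright, with mean signals of 3341.5 in iae2 and 3983.7 in iae1, and it was not followed in the alternatives. The median log2 fold change of the bright probe sets in iae2 against iae1 was -0.12. In this comparison 19.6% of all tested probe sets were called. For 35.8% of all tested probe sets, every iae2 array lay on one side of every iae1 array. An order seen on 3 of 3 arrays therefore does not by itself set a gene apart.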

How the results depend on the processing

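LHCB4.2 passed in all 22 alternative fits in iae2 against B1798 (log2 fold change 0.51 to 0.94, adjusted p up to 0.00247) and in iae2 against iae1 (0.80 to 1.07, adjusted p up to 0.00025). The count of the 7 genes called in iae2 against B1798 was 2 with log2(value + 4), with the stricter filter, with array weights and with the GAPDH ratio as a covariate, and 3 with quantile normalization and, added after seeing the data, with the lowest array of each line left out together, against 1 in the fit reported. It ranged from 1 to 3 when single arrays were left out. In iae1 against B1798 it was 1 with quantile normalization and 0 to 1 with single arrays left out, and in iae2 against iae1 it was 2 with the GAPDH ratio. Of the 10 other pathway genes, 2 were called in iae2 against B1798 as reported, 0 with the GAPDH ratio, 3 with equal array medians (PETM added, -0.36, adjusted p = 0.0491) and 2 to 3 with single arrays left out. In iae2 against iae1 their count, 1 as reported, was 2 with array weights, with only the 2 lines compared and with the replicate block, 0 with the lowest arrays left out, and 1 to 3 with single arrays left out. In iae1 against B1798 it was 0 in every alternative. The replicate block changed no call of the 7 genes, and LHCB4.2 had an adjusted p = 0.000246 in iae2 against B1798 under it.

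The 7 genes read far above the array medians of 35.7 to 38.3. Signs turned for genes that had not passed, and the cause was not tested. With the GAPDH ratio, the log2 fold changes in iae2 against B1798 became 0.12 for LHCB4.1, 0.20 for PSAE-1, 0.073 for PSAN, 0.25 for PSBW, 0.18 for PETM, 0.031 for ATPC2 and -0.50 for LHCB4.3. Those in iae1 against B1798 became 0.052 for LHCB4.1, 0.034 for PSAE-1, 0.051 for PSBW, -0.036 for HEMB1 and -0.13 for LHCB4.3. Those in iae2 against iae1 became 0.071 for LHCB4.1, 0.16 for PSAE-1, 0.19 for PSBW and -0.023 for ATPC1. With quantile normalization, LHCB4.1 became 0.077 in iae2 and 0.038 in iae1 against B1798 and 0.039 in iae2 against iae1, PSAE-1 0.095 and PSAN 0.033 in iae2 against B1798, HEMB1 -0.0084 in iae1 against B1798, and PSAE-1 0.099, PSB27 0.066 and PSBW 0.019 in iae2 against iae1. With equal array medians, HEMB1 was -0.036 and PETM -0.023 in iae1 against B1798, LHCB4.3 -0.027 in iae2 against B1798 and PSAN -0.0052 in iae2 against iae1. With array weights, LHCB4.3 was -0.0061 in iae2 and PETM -0.015 in iae1 against B1798, and PAM68 -0.0018 in iae2 against iae1. With the lowest arrays left out, ATPC2 was -0.0011 and PETM -0.10 in iae1 against B1798, and PAM68 -0.062 in iae2 against iae1. Leaving out single arrays gave -0.015 to 0.10 for ATPC2, -0.12 to 0.11 for PETM, -0.055 to 0.049 for HEMB1, -0.10 to 0.19 for LHCB4.3 and -0.16 to 0.0082 for HCF101 in iae1 against B1798, -0.14 to 0.16 for LHCB4.3 in iae2 against B1798, and -0.076 to 0.0016 for LHCB4.3, -0.071 to 0.037 for PSB27, -0.043 to 0.052 for PSAN, -0.053 to 0.098 for PAM68 and -0.15 to 0.049 for PSAE-1 in iae2 against iae1.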
